A study of Mus musculus with 12 samples.

Results

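A set of 10 genes of the germ line and of meiosis was followed in the RNA‐seq libraries of inducible *Xist* ES cells: *Dppa3*, *Mael*, *Asz1*, *Dazl*, *Stra8*, *Hormad1*, *Sycp1*, *Sycp3*, *Brdt* and *Taf7l*. They were chosen by name, as genes that promoter DNA methylation or the Polycomb complex PRC1.6 holds down outside the germ line, and all 10 were found among the 24627 genes of the count files. The libraries came from J1, an XY mouse ES cell line. Doxycycline (DOX) switches on *Xist* from its own locus there, through a tetracycline‐inducible promoter (*Xist*‐TetOP). Lines with the full‐length transcript (*Xist* FL), without the A repeat (*Xist* ΔA, a silencing‐defective line made in earlier work) and lacking both B and C repeats (*Xist* ΔB+C, made from *Xist* FL with CRISPR/Cas9) were collected, after 1.5 μg/ml DOX or no DOX (noDOX), at day 2 of differentiation, which was started by removing LIF. The 6 groups had 2 replicates each, which makes 12 libraries. Each line was 1 clone, so line and clone cannot be told apart, and DOX turns on *Xist* in only part of the cells of each line. Input RNA was 1000 ng except for *Xist* ΔB+C DOX replicate 2, for which 100 ng was used by a low input protocol.

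Germline genes of this kind carry CpG‐rich promoters that are methylated in somatic cells and in differentiating ES cells. PRC1.6 is a Polycomb repressive complex that binds such promoters through MGA and MAX, which recognise the E‐box CACGTG, and through E2F6 and its partner DP1, which recognise GCGGGA, and it is best known for keeping meiosis genes down in ES cells. ES cells in culture still hold low levels of many of these transcripts. The members differ in their roles: *Dppa3* (Stella) protects the maternal genome from demethylation and marks naive pluripotent and primordial germ cells. *Mael* and *Asz1* act in the piRNA pathway that represses transposons. *Dazl* is an RNA‐binding protein of early germ cells and *Stra8* the retinoic acid‐induced gene of meiotic entry. *Hormad1*, *Sycp1* and *Sycp3* build the chromosome axis and the synaptonemal complex. *Brdt* is the testis bromodomain protein and *Taf7l* a germ cell TFIID subunit.

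Promoter sequence from RefSeq (GRCm38.p6, from 250 bases before to 50 bases after the gene start) was given for 9 of the 10 members. *Dppa3* had no entry. The E‐box CACGTG, which reads the same on both strands, occurred in 6 of the 9 promoters (*Sycp1*, *Sycp3*, *Mael*, *Hormad1*, *Brdt* and *Taf7l*), against 7.15% of 32851 promoters of the same length. The E2F motif GCGGGA or its reverse complement TCCCGC occurred in 4 of them (*Sycp1*, *Sycp3*, *Mael* and *Hormad1*), against 20% of all promoters. The number of CG dinucleotides ranged from 10 in *Stra8* to 28 in *Dazl*, against a median of 7 and quartiles of 3 and 20 over all promoters. Those of *Mael* and *Hormad1*, which hold both motifs, are printed beside those of *Stra8* and *Asz1*, which hold neither, and of *Taf7l*, the only X‐linked member, because the results below turn on these 5 genes. Capitals mark CACGTG as well as GCGGGA or TCCCGC, and each sequence runs 5′ to 3′ on the strand of its gene.
*Mael*, chr1:166238695-166238994, minus strand: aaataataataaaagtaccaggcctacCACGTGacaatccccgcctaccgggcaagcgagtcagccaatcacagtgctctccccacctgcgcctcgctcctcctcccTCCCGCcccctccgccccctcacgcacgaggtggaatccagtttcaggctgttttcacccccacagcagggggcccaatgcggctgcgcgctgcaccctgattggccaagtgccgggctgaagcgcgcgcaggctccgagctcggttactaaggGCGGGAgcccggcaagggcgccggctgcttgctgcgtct
*Hormad1*, chr3:95559427-95559726, plus strand: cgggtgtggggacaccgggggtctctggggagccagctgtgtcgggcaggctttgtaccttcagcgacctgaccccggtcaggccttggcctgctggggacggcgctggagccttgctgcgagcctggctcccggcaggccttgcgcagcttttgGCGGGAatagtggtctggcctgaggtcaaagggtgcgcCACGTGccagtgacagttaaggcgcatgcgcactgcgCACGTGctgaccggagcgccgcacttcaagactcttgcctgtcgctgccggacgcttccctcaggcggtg
*Stra8*, chr6:34920698-34920997, plus strand: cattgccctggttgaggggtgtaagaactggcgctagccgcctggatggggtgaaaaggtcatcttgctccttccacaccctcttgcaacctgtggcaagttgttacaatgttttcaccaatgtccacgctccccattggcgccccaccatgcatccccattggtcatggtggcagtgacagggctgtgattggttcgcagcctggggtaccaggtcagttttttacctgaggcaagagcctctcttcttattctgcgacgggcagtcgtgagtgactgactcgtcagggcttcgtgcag
*Asz1*, chr6:18109012-18109311, minus strand: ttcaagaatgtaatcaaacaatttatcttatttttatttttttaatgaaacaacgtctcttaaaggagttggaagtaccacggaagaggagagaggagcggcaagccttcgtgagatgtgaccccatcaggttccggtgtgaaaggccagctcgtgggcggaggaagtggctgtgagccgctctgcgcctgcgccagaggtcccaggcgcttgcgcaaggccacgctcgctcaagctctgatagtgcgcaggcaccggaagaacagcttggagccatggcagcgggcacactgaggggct
*Taf7l*, chrX:134476441-134476740, minus strand: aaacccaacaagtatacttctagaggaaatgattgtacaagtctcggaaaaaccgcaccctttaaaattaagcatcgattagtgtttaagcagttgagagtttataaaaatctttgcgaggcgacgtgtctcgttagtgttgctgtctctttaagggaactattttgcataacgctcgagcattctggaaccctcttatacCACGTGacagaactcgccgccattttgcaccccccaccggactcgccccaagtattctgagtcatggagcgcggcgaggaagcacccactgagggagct
In *Hormad1* the E‐boxes began 57 and 20 bases before the start and GCGGGA 95 bases before it, and in *Taf7l* the E‐box began 49 bases before it. These matches describe the letters of the window and are not binding sites measured in these cells. A second RefSeq start of *Hormad1* lies 2 bases further and gives the same motifs. The *Stra8* window lies inside the GENCODE vM21 span of the gene (chr6:34920163-34939344), so the sequence before that gene start was not searched.

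The 12 libraries held between 31337490 and 41240470 counts. *Xist*, the check of the labels, lay between 2.44 and 8.38 CPM (counts scaled to the total of the library) in the noDOX libraries and between 557 and 1830.1 CPM with DOX. Core pluripotency markers of ES cells summed to between 3045 and 4331 CPM in every library. Libraries with the same replicate number deviated together from their group means (Pearson r between 0.39 and 0.782 over 15 pairs of groups), and 46.3% of the 13191 tested genes differed between replicates 2 and 1 (edgeR, adjusted p under 0.05). The labels do not say what a replicate number stands for. Each comparison was therefore also fitted with the replicate number as a block, and both values are given where the call of a member differs. For the other gene lists the values are those without the block, and the counts with the block follow them. Tests covered the genes that reached 1 CPM in 6 or more libraries, which left 8 members. *Stra8* reached 1 CPM in 5 libraries and *Asz1* in 4, and these genes were tested only under a lower limit of 0.1 CPM in 2 libraries, which kept 17549 genes.

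Levels of the members were low. Per kilobase of exon (GENCODE vM21), the mean over the 12 libraries was highest for *Dppa3* (11.1 CPM per kb), followed by *Mael* (7.38), *Sycp3* (4.68), *Sycp1* (2.68), *Hormad1* (2.09), *Taf7l* (1.53) and *Dazl* (1.39). It was below 1 CPM per kb for *Stra8* (0.718), *Brdt* (0.326) and *Asz1* (0.274). Counts in single libraries ran from 4 (*Asz1*) to 879 (*Mael*), and no member was at 0 in any library. *Sycp1* varied least, with a highest library 1.6 times its lowest, and *Stra8* most, with a highest library 21.4 times its lowest. Some exons of *Sycp3* (chr10:88459569-88473236) overlap *Chpt1* on the other strand. The counting options that the study lists name no strand setting, so reads on these exons may be misassigned or left out. Pseudogenes named after *Sycp1* and *Dppa3* exist in the annotation. The study's alignment options kept a single location per read. Which copy a matching read was given to is not known, so these levels are uncertain to that extent.

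**Figure D1:**
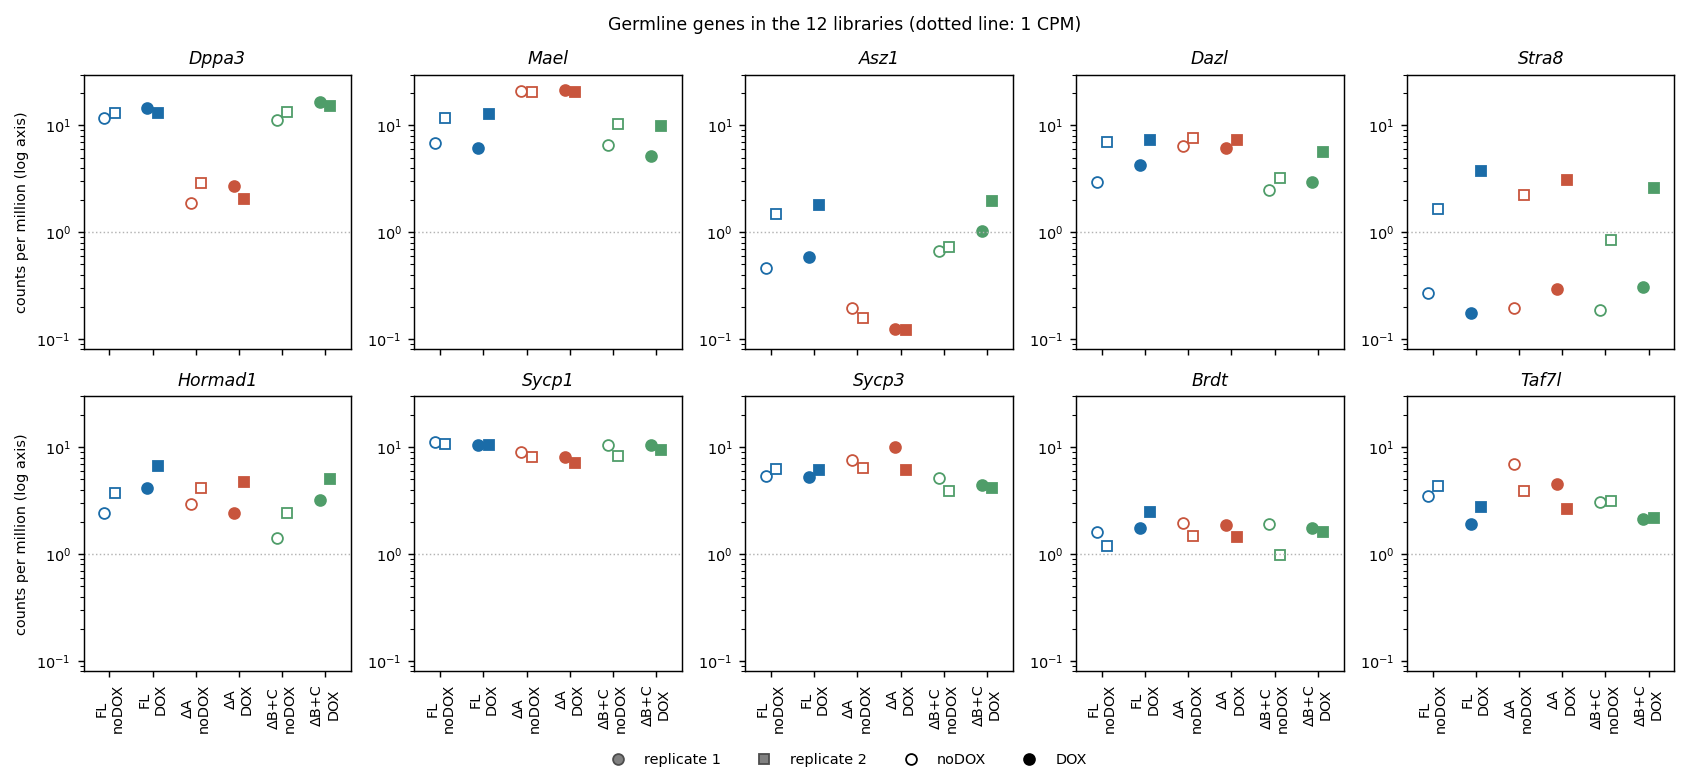
CPM of the 10 members (log axis) in each of the 12 libraries, by group. Circles are replicate 1 and squares replicate 2, open symbols noDOX and filled symbols DOX, and colours mark the lines; *Dppa3* and *Asz1* are lowest and *Mael* highest in the 4 *Xist* ΔA libraries, and *Stra8* is above 0.8 CPM in every replicate 2 library and below 0.4 CPM in every replicate 1 library.

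*Dppa3* separated the lines most clearly. It lies on chromosome 6 (chr6:122626410-122630272). It had 1.89 and 2.91 CPM in replicates 1 and 2 of *Xist* ΔA noDOX and 2.69 and 2.03 CPM in *Xist* ΔA DOX. In *Xist* FL it had 11.6 and 13.1 CPM without DOX and 14.5 and 13.2 CPM with DOX. In *Xist* ΔB+C it had 11.2 and 13.4 CPM without DOX and 16.5 and 15.2 CPM with DOX. All 4 *Xist* ΔA libraries lay below all 8 others, and the ranges of *Xist* FL and *Xist* ΔB+C overlapped. The share of all genes whose ranges separate the lines in this way was not counted, here or for *Asz1* and *Mael* below. Without DOX, the log2 fold change of *Xist* ΔA against *Xist* FL was -2.39 (SE 0.23, adjusted p = 0.000603) and that of *Xist* ΔB+C against *Xist* ΔA was 2.40 (SE 0.23, adjusted p = 0.000701). Between *Xist* ΔB+C and *Xist* FL the log2 difference of *Dppa3* was 0.0022 (SE 0.21).

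*Asz1*, also on chromosome 6 (chr6:18050964-18109061), was lowest in the same line but rests on few counts. In *Xist* ΔA it had 8 and 5 counts (0.196 and 0.156 CPM) without DOX and 5 and 4 counts (0.124 and 0.121 CPM) with DOX. In *Xist* FL it had 19 and 53 counts (0.461 and 1.49 CPM) without DOX and 20 and 69 counts (0.583 and 1.81 CPM) with DOX, and in *Xist* ΔB+C 25 and 25 counts (0.666 and 0.727 CPM) and 40 and 61 counts (1.03 and 1.95 CPM). The *Xist* ΔA range did not overlap that of either other line. The log2 fold change of *Xist* ΔA against *Xist* FL without DOX was -2.43 (SE 0.73, adjusted p = 0.0777), and with the block it was -2.30 (SE 0.52, adjusted p = 0.00455). Leaving out *Xist* FL noDOX replicate 2 ended the latter call (adjusted p = 0.0899), as did leaving out *Xist* ΔA noDOX replicate 2 (adjusted p = 0.11); 26.5% of all genes tested at this limit were called. For *Xist* ΔB+C against *Xist* ΔA the adjusted p of *Asz1* was 0.176 without the block and 0.0178 with it (log2 fold change 1.96, SE 0.54, against 22.3% of genes called); that call was lost without *Xist* ΔA noDOX replicate 2 (adjusted p = 0.228) or *Xist* ΔB+C noDOX replicate 1 (adjusted p = 0.146).

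*Mael* (chr1:166201201-166238747) had the opposite order. It had 21.2 and 20.5 CPM in *Xist* ΔA noDOX and 21.7 and 20.4 CPM in *Xist* ΔA DOX. In *Xist* FL it had 6.91 and 11.7 CPM without DOX and 6.12 and 12.7 CPM with DOX, and in *Xist* ΔB+C 6.60 and 10.4 CPM and 5.18 and 9.99 CPM. The 4 *Xist* ΔA libraries were above all others, with nearly equal values, while in the other lines replicate 2 was above replicate 1 in each group. Without DOX, the log2 fold change of *Xist* ΔA against *Xist* FL was 1.15 (SE 0.42, adjusted p = 0.125), and it passed the threshold with the block (1.21, SE 0.29, adjusted p = 0.0138). With the block the *Mael* call was lost without *Xist* FL noDOX replicate 1 (adjusted p = 0.115), *Xist* FL noDOX replicate 2 (0.0682) or *Xist* ΔA noDOX replicate 1 (0.0771). *Xist* ΔB+C against *Xist* ΔA gave a log2 fold change of -1.26 (SE 0.43, adjusted p = 0.118) and, with the block, -1.32 (SE 0.29, adjusted p = 0.012); the call was lost without *Xist* ΔA noDOX replicate 1 (adjusted p = 0.0656), *Xist* ΔB+C noDOX replicate 1 (0.0943) or replicate 2 (0.0759). The piRNA pathway genes *Mael* and *Asz1* lay at opposite ends in the same line.

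Of the 8 members tested without DOX, 1 differed between *Xist* ΔA and *Xist* FL (*Dppa3*, lower), against 9.84% of all tested genes. With the block there were 3 (*Dppa3* and *Sycp1* lower, *Mael* higher), against 33.4% of all tested genes. Between *Xist* ΔB+C and *Xist* ΔA 1 member differed (*Dppa3*, higher), against 6.69% of genes, and with the block 4 (*Dppa3* higher, and *Mael*, *Dazl* and *Hormad1* lower), against 27.9%. Between *Xist* ΔB+C and *Xist* FL no member passed in either fit, against 0.0227% and 0.993% of genes. No member had an unadjusted p under 0.05 in that comparison without the block, and none was called by DESeq2 or limma‐voom. With the block 2 members had one, against 2180 of the 13191 tested genes. They were *Dazl* (log2 fold change -0.72, adjusted p = 0.166) and *Hormad1* (-0.68, adjusted p = 0.097, edgeR), both lower in *Xist* ΔB+C. With 8 members tested, these counts are not read as departing from the background. Primitive endoderm markers, 6 genes, summed to 232 to 296 CPM in *Xist* ΔA and 351 to 532 CPM in *Xist* FL. In *Xist* ΔB+C they summed to 407 to 690.3 CPM. Most of this was *Sparc* (200 to 561 CPM over the libraries), and no other of the 6 exceeded 77.0 CPM. *Sparc* was also the 1 of 6 that passed the test between *Xist* ΔB+C and *Xist* ΔA. The median of the 6 log2 fold changes between *Xist* ΔA and *Xist* FL without DOX was 0.41, opposite in sign to the sums. With the block, *Sparc* was lower (-0.84) and *Gata4* higher (0.97) in that comparison. Fibroblast markers summed to 10.2 to 17.3 CPM in *Xist* ΔA, 20.1 to 54.0 CPM in *Xist* FL and 24.0 to 41.1 CPM in *Xist* ΔB+C, with *Lum* at most 0.0799 CPM and *Postn* at most 0.321 CPM. Of 8 formative and early differentiation markers, *Mixl1* (-3.54, adjusted p = 0.0351) and *Eomes* (-1.28, adjusted p = 0.0279) were lower in *Xist* ΔA than in *Xist* FL without DOX (edgeR). Both are of the primitive streak. The neural progenitor gene *Sox3* (0.98, adjusted p = 0.0252) was higher. The 8, mostly *Dnmt3b* (817 to 1580 CPM), summed to 1882 to 2288 CPM in *Xist* ΔA and 1531 to 2029 CPM in *Xist* FL. In *Xist* ΔB+C they summed to 1288 to 1816 CPM. Naive pluripotency markers, 9 genes, summed to 796 to 1561 CPM in *Xist* ΔA, 660 to 1256 CPM in *Xist* FL and 672 to 1376 CPM in *Xist* ΔB+C. The part of all these markers in the line differences of the members was not tested. In bulk libraries, fewer cells with a transcript and less transcript per cell cannot be told apart.

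**Figure D2:**
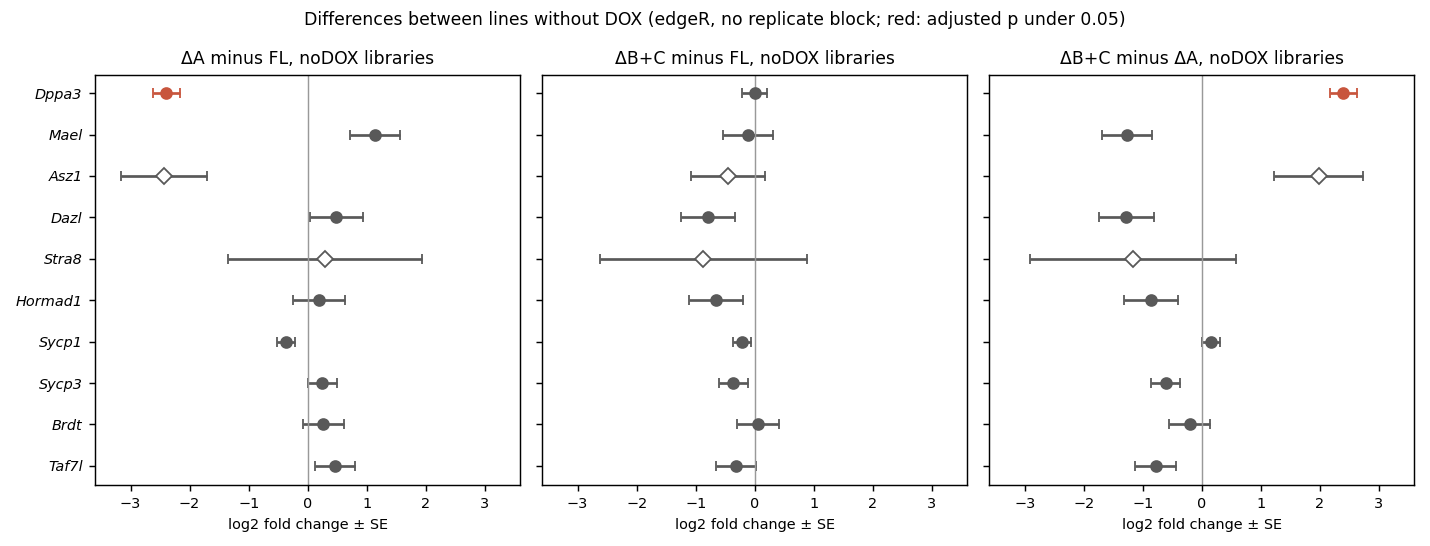
Log2 fold changes (± SE) of the 10 members between lines in the noDOX libraries, from the fit without the block. Red marks adjusted p under 0.05 and open diamonds the members of low count, tested under the lower limit; *Dppa3* stands at -2.39 in *Xist* ΔA against *Xist* FL and at 2.40 in *Xist* ΔB+C against *Xist* ΔA, and near 0 between *Xist* ΔB+C and *Xist* FL.

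*Stra8* (chr6:34920163-34939344), which retinoic acid switches on before meiosis, was higher in every replicate 2 library than in any replicate 1 library. The share of all genes that separate the replicate numbers in this way was not counted. Replicate 1 libraries held 11 and 6 counts in *Xist* FL without and with DOX, 8 and 12 counts for *Xist* ΔA and 7 and 12 counts for *Xist* ΔB+C, that is 0.175 to 0.308 CPM. Replicate 2 libraries held 59 and 143 counts (1.65 and 3.74 CPM) in *Xist* FL, 71 and 101 counts (2.22 and 3.07 CPM) in *Xist* ΔA and 29 and 81 counts (0.844 and 2.58 CPM) in *Xist* ΔB+C. The log2 fold change of replicate 2 against replicate 1 was 3.22 (SE 0.23, adjusted p = 6.58e-07), and it was above 0 in 6 of 6 groups, from 1.93 to 4.05. Without the low input library it was 3.26 (adjusted p = 1.17e-05).

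*Dazl* (chr17:50279395-50293636) and *Hormad1* (chr3:95559677-95587671) were also higher in replicate 2 in 6 of 6 groups. *Dazl* had 2.93 CPM in replicate 1 and 7.04 CPM in replicate 2 of *Xist* FL noDOX, 4.28 and 7.33 CPM in *Xist* FL DOX, 6.44 and 7.69 CPM in *Xist* ΔA noDOX, 6.20 and 7.38 CPM in *Xist* ΔA DOX, 2.48 and 3.23 CPM in *Xist* ΔB+C noDOX, and 2.95 and 5.65 CPM in *Xist* ΔB+C DOX. The log2 fold change of replicate 2 against replicate 1 was 0.65 (SE 0.14, adjusted p = 0.00291) for *Dazl* and 0.71 (SE 0.10, adjusted p = 0.000309) for *Hormad1*. It was 0.53 (SE 0.17, adjusted p = 0.0347) for *Mael*, which lost the call without the low input library (adjusted p = 0.109), and 0.94 (SE 0.26, adjusted p = 0.012) for *Asz1*. *Mael* and *Asz1* were higher in replicate 2 in 4 of 6 groups, all of them in the *Xist* ΔB+C or *Xist* FL lines. Altogether 3 of the 8 tested members were higher in replicate 2 and none lower, against 22.7% and 23.5% of all tested genes, and 4 of 10 (*Dazl*, *Hormad1*, *Stra8* and *Asz1*) were higher under the lower limit, against 17.6% of genes. Of the 8, limma‐voom called 2 as higher in replicate 2, and the *Mael* call was also lost under the lower limit.

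Markers of the pluripotent state moved with the replicate number in the same libraries. Naive pluripotency markers, 9 genes, summed to between 660.5 and 941 CPM in the replicate 1 libraries and between 951 and 1561 CPM in the replicate 2 libraries. Of these, 5 of 9 were higher in replicate 2 and none lower, against 22.7% and 23.5% of all tested genes. Markers of 2‐cell‐like cells, a rare state of ES cell cultures, summed to 0.437 to 2.63 CPM in replicate 1 and 2.68 to 7.43 CPM in replicate 2; none of the 9 reached 1 CPM in 6 libraries, and *Gm4340* was at 0 in every library. Under the lower limit used for *Stra8*, 6 of the 9 were tested. Of these, 4 were higher in replicate 2 (*Zscan4c* 2.29, *Zscan4d* 2.48, *Zscan4f* 1.81 and *Usp17la* 2.17 on the log2 scale) and 0 lower. At this limit 17.6% of all tested genes were higher. Core pluripotency markers summed to 3045 to 3783 CPM in replicate 1 and 3624 to 4331 CPM in replicate 2. Of these, 5 of 6 were higher, against 22.7% of all tested genes, and *Nanog* is counted in both the naive and the core list. The part of all these markers in the higher *Stra8*, *Dazl* and *Hormad1* was not tested.

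**Figure D3:**
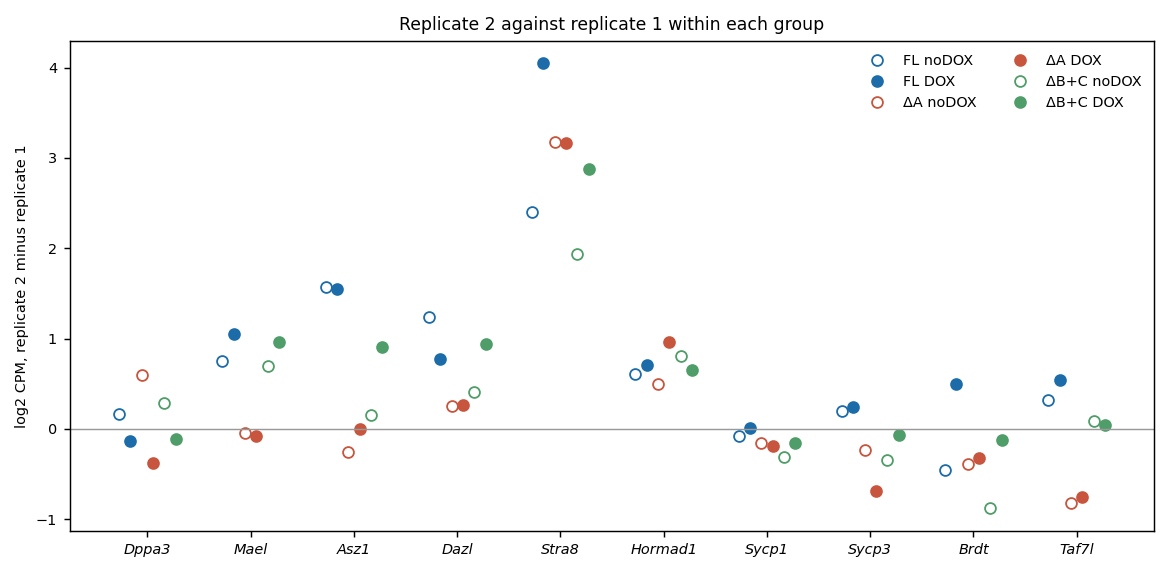
Difference in log2 CPM between replicate 2 and replicate 1 within each of the 6 groups, for the 10 members, with open symbols for noDOX and filled for DOX. *Stra8* lies between 1.93 and 4.05 in all groups, *Dazl* and *Hormad1* are above 0 in 6 of 6 groups, and *Sycp1*, *Sycp3*, *Brdt* and *Taf7l* lie on both sides of 0.

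The DOX comparison asks whether switching on *Xist* from the X chromosome changed these genes, 9 of which are autosomal. Without the block no tested member passed in *Xist* FL (against 1.24% of all tested genes), *Xist* ΔA (0.00758%), *Xist* ΔB+C (2.94%) or the mean of the 3 lines (4.05%), and neither DESeq2 nor limma‐voom called any. At an unadjusted p under 0.05 there were 0 members in *Xist* FL and *Xist* ΔA, 1 in *Xist* ΔB+C (*Hormad1*) and 2 in the mean of the lines (*Hormad1* and *Taf7l*). With the block 1 member passed in *Xist* FL (*Hormad1*, against 13.9% of genes), 0 in *Xist* ΔA (0.0227%), 1 in *Xist* ΔB+C (*Hormad1*, 21.9%) and 2 in the mean (*Hormad1* higher and *Taf7l* lower, 23.8%).

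*Hormad1*, whose product binds unsynapsed chromosome axes, had 2.42 CPM in replicate 1 and 3.73 CPM in replicate 2 of *Xist* FL noDOX and 4.14 and 6.75 CPM with DOX. In *Xist* ΔB+C it had 1.41 and 2.44 CPM without DOX and 3.23 and 5.04 CPM with DOX. In *Xist* ΔA it had 2.95 and 4.19 CPM without DOX and 2.42 and 4.71 CPM with DOX. Within each replicate number the DOX library was the higher in *Xist* FL and *Xist* ΔB+C, while the *Xist* ΔA pairs went in opposite directions. In the same comparisons, without the block, the differentiation markers *Eomes* (log2 fold change -1.59 for *Xist* FL and -1.38 for *Xist* ΔB+C, with adjusted p of 0.0427 and 0.0431) and *Fgf5* (-1.48 in *Xist* ΔB+C, adjusted p = 0.0434) fell with DOX, and none of the 8 passed in *Xist* ΔA, where 0 had an unadjusted p under 0.05. The summed level of the 8 was lower with DOX in 6 of 6 pairs, and was mostly *Dnmt3b* (817 to 1580 CPM) and *Pou3f1* (231 to 450 CPM). With the block *Pou3f1* rose with DOX in *Xist* FL (0.36), where *Mixl1* (-1.43) and *Eomes* (-1.63) fell. Naive pluripotency markers summed to more with DOX in each pair. They went from 660 to 941 and 951 to 1256 CPM in *Xist* FL. In *Xist* ΔB+C they went from 672 to 874 and 1009 to 1376 CPM, and in *Xist* ΔA from 796 to 841 and 1498 to 1561 CPM. By median level the largest parts of these sums were *Dppa5a* (308 to 881 CPM) and *Zfp42* (67.9 to 333 CPM). No gene of the naive list passed with DOX in any line without the block. With the block *Dppa5a* passed in *Xist* FL (0.42) and *Zfp42* in *Xist* ΔB+C (1.09). The part of these markers in the *Hormad1* difference was not tested. The log2 fold change was 0.83 for *Xist* FL (SE 0.44, adjusted p = 0.465; with the block 0.81, SE 0.17, adjusted p = 0.01), 1.06 for *Xist* ΔB+C (SE 0.45, adjusted p = 0.249; with the block 1.08, SE 0.18, adjusted p = 0.00224) and 0.04 for *Xist* ΔA (SE 0.44; with the block -0.0043, SE 0.17). The *Xist* FL call of *Hormad1* with the block was lost without *Xist* FL noDOX replicate 2 (adjusted p = 0.127), *Xist* FL DOX replicate 1 (0.0505) or replicate 2 (0.0726), while that of *Xist* ΔB+C passed with each of the 12 libraries left out.

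The difference of the *Hormad1* response between *Xist* ΔB+C and *Xist* ΔA was 1.02 on the log2 scale (SE 0.63, adjusted p = 0.585) without the block and 1.08 (SE 0.25, adjusted p = 0.0231) with it. No other member passed in any of the 3 differences of the DOX response, in either edgeR fit, against 0.205% of genes called for *Xist* ΔB+C minus *Xist* ΔA without the block and 9.32% with it, 0% and 3.31% for *Xist* ΔA minus *Xist* FL, and 0% in both fits for *Xist* ΔB+C minus *Xist* FL. The call passed in 6 of 12 fits with 1 library left out, and was lost without *Xist* ΔA noDOX replicate 1 (adjusted p = 0.0855), *Xist* ΔA noDOX replicate 2 (0.0543), *Xist* ΔA DOX replicate 1 (0.103), *Xist* ΔB+C noDOX replicate 1 (0.0673), *Xist* ΔB+C noDOX replicate 2 (0.0921) or *Xist* ΔB+C DOX replicate 2 (0.0554). For *Xist* ΔA minus *Xist* FL the difference in *Hormad1* was -0.82 with the block (SE 0.24, adjusted p = 0.0941), and for *Xist* ΔB+C minus *Xist* FL 0.27 (SE 0.25). The noDOX level of *Hormad1* also differed between *Xist* ΔB+C and *Xist* ΔA, with a log2 fold change of -0.86 (SE 0.46, adjusted p = 0.301) without the block and -0.88 (SE 0.18, adjusted p = 0.00472) with it. These comparisons share the noDOX libraries, so the lower noDOX level and the larger DOX difference of *Xist* ΔB+C are not separate observations.

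*Taf7l* (chrX:134460118-134476490), which replaces a TFIID subunit in germ cells, is the only member on the chromosome that *Xist* coats. It had 3.47 and 4.35 CPM in *Xist* FL noDOX and 1.89 and 2.77 CPM with DOX, and 3.06 and 3.17 CPM in *Xist* ΔB+C noDOX and 2.13 and 2.17 CPM with DOX. In *Xist* ΔA it had 6.98 and 3.94 CPM without DOX and 4.55 and 2.64 CPM with DOX. The DOX library was the lower in 6 of 6 pairs, by log2 differences from -0.86 to -0.52. The log2 fold change was -0.74 for *Xist* FL (SE 0.35, adjusted p = 0.393), -0.56 for *Xist* ΔA (SE 0.34, adjusted p = 1) and -0.57 for *Xist* ΔB+C (SE 0.35, adjusted p = 0.427). For the mean of the 3 lines it was -0.62 (SE 0.20, adjusted p = 0.123; with the block SE 0.18, adjusted p = 0.0334). Only 4 of the 12 fits of *Taf7l* with the block and 1 library left out passed, with adjusted p up to 0.109 (without *Xist* FL noDOX replicate 2). The calls that were lost were those without *Xist* FL noDOX replicate 2, *Xist* FL DOX replicate 1 (adjusted p = 0.0876), *Xist* ΔA noDOX replicate 1 (0.101), *Xist* ΔA DOX replicate 2 (0.0749) and each of the 4 *Xist* ΔB+C libraries (between 0.0613 and 0.106).

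The other X‐linked genes give the scale for *Taf7l*. Over the 464 tested X‐linked genes apart from *Xist*, the median log2 fold change with DOX was -0.85 for *Xist* FL, -0.14 for *Xist* ΔA and -0.78 for *Xist* ΔB+C, and the autosomal medians lay between 0.002748 and 0.005998. *Taf7l* had a smaller decrease than the median X‐linked gene in *Xist* FL and *Xist* ΔB+C, where 281 and 316 of the 464 genes had a lower log2 fold change, and a larger one in *Xist* ΔA, where 66 did. Its DOX response was not shown to differ between *Xist* ΔA and *Xist* FL (difference 0.18, SE 0.48, adjusted p = 0.971) or between *Xist* ΔB+C and *Xist* FL (0.17, SE 0.49, adjusted p = 1).

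*Stra8* with DOX was tested only under the lower limit. With the block its log2 fold change was 1.35 in *Xist* ΔB+C (SE 0.41, adjusted p = 0.035) and 0.90 for the mean of the lines (SE 0.22, adjusted p = 0.0104), against 16.8% and 18.2% of all genes tested; without the block both were far from the threshold (adjusted p = 0.748 and 0.643). The *Xist* ΔB+C value rests on replicate 2, in which 29 counts without DOX stand against 81 with DOX, and without *Xist* ΔB+C noDOX replicate 2 it was 0.47 (adjusted p = 0.753). It was also lost without *Xist* ΔB+C DOX replicate 1 (adjusted p = 0.0693) or replicate 2, the low input library (0.21). The mean over lines was lost without *Xist* FL noDOX replicate 2 (0.72, adjusted p = 0.0992), *Xist* FL DOX replicate 2 (0.52, adjusted p = 0.254), *Xist* ΔA DOX replicate 2 (adjusted p = 0.061) or *Xist* ΔB+C noDOX replicate 2 (0.60, adjusted p = 0.173).

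**Figure D4:**
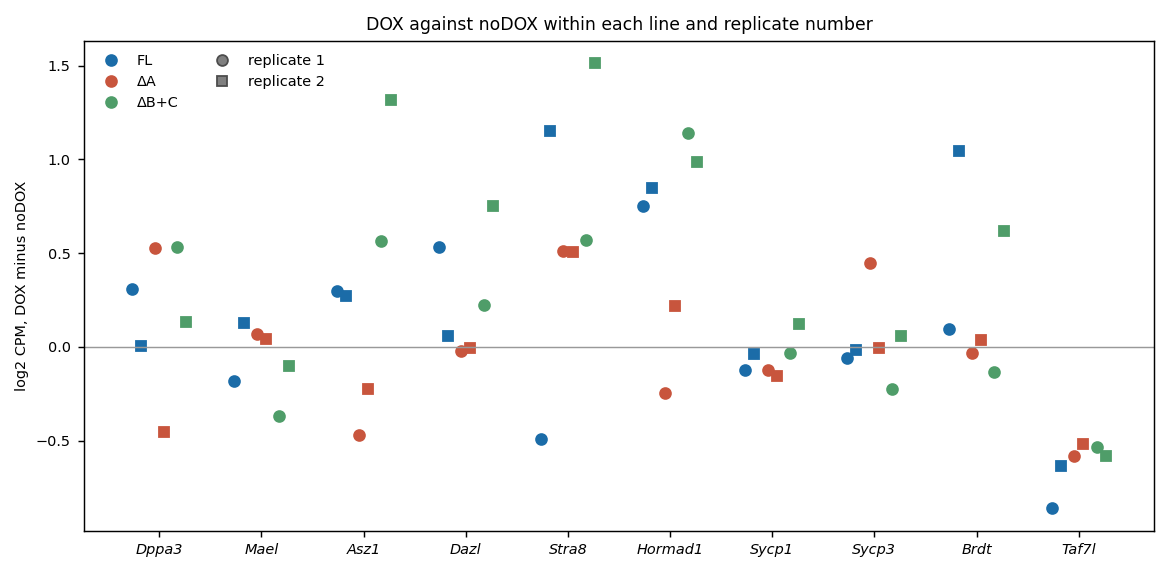
Difference in log2 CPM between the DOX and the noDOX library of the same line and replicate number, for the 10 members (circles replicate 1, squares replicate 2). *Taf7l* is below 0 in 6 of 6 pairs, and *Hormad1* is above 0 in both pairs of *Xist* FL and *Xist* ΔB+C and on both sides of 0 in *Xist* ΔA.

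*Sycp1* (chr3:102818499-102936100), the transverse filament protein, lay between 10.4 and 11.3 CPM in *Xist* FL, 7.07 and 9.09 CPM in *Xist* ΔA and 8.32 and 10.6 CPM in *Xist* ΔB+C. Its log2 fold change in *Xist* ΔA against *Xist* FL without DOX was -0.38 (SE 0.15, adjusted p = 0.16), with the block SE 0.12 and adjusted p = 0.0298. That call was lost without *Xist* FL noDOX replicate 1 (adjusted p = 0.08) or 2 (0.164), or *Xist* ΔA noDOX replicate 1 (0.124) or 2 (0.133). *Sycp3*, of the axial element, lay between 5.22 and 6.26 CPM in *Xist* FL, 6.19 and 10.1 CPM in *Xist* ΔA and 3.90 and 5.11 CPM in *Xist* ΔB+C, and its log2 fold change in *Xist* ΔB+C against *Xist* ΔA was -0.61 (SE 0.25, adjusted p = 0.181; with the block 0.0503). *Brdt* (chr5:107331159-107387058), which binds acetylated histones in spermatocytes and spermatids, lay between 0.989 and 2.49 CPM over all libraries, with no call in either fit. *Dazl* without DOX was also compared between *Xist* ΔB+C and *Xist* ΔA, with a log2 fold change of -1.28 (SE 0.46, adjusted p = 0.14), and of -1.30 with the block (SE 0.24, adjusted p = 0.0027), which passed with each of the 12 libraries left out.

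The 14 listed subunits of PRC1.6 were all tested, and none passed with DOX in any line without the block (edgeR, and likewise DESeq2 and limma‐voom; 1, 0 and 2 had an unadjusted p under 0.05 in *Xist* FL, ΔA and ΔB+C). Of all tested genes, 1.24%, 0.00758% and 2.94% were called in these lines (edgeR). The list medians of the log2 fold change lay at -0.07 for *Xist* FL, 0.05 for *Xist* ΔA and -0.12 for *Xist* ΔB+C, against -0.00724, 0.000144 and -0.003 over all tested genes. With the block 0 rose and 1 (*Yaf2*) fell in *Xist* FL, against 13.9% of all tested genes called, and 0 rose and 4 (*Tfdp1*, *E2f6*, *Yaf2* and *Pcgf6*) fell in *Xist* ΔB+C, against 21.9%. Without DOX, *Max*, the partner of MGA at the E‐box, was higher in *Xist* ΔA than in *Xist* FL (125 to 132 CPM against 96.6 to 102 CPM over the libraries of each line; log2 fold change 0.32, SE 0.08, adjusted p = 0.039) and lower in *Xist* ΔB+C than in *Xist* ΔA (-0.41, adjusted p = 0.0245), and *Tfdp1*, which encodes DP1, was higher in *Xist* ΔB+C than in *Xist* ΔA (0.41, SE 0.08, adjusted p = 0.0266). With the block, 4 subunits were higher in *Xist* ΔA than in *Xist* FL (*Wdr5*, *Mga*, *Max* and *L3mbtl2*) and 2 lower (*Tfdp1* and *Yaf2*), by log2 fold changes between -0.59 and 0.41, and 2 were higher and 3 lower in *Xist* ΔB+C than in *Xist* ΔA, against 33.4% and 27.9% of genes. Without the block, 9.84% and 6.69% of all tested genes were called in these comparisons. Between replicates 2 and 1, 2 subunits were higher and 6 lower, against 22.7% and 23.5% of all tested genes, the largest being *Yaf2* (-0.46), *E2f6* (-0.29), *Rnf2* (-0.27) and *Cbx3* (-0.26).

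Of 15 genes listed for DNA methylation and H3K9 methylation, all tested, *Kdm5c* fell with DOX in *Xist* ΔB+C (log2 fold change -0.64, SE 0.10, adjusted p = 0.0135) and in the mean of the 3 lines (-0.40, SE 0.06, adjusted p = 0.0057), and no other passed without the block (edgeR). Of all tested genes, 2.94% were called in *Xist* ΔB+C and 4.05% in the mean. *Kdm5c* is X‐linked and encodes a demethylase of H3K4, not of H3K9 or DNA, and in *Xist* FL its log2 fold change was -0.46 (SE 0.10, adjusted p = 0.0657; with the block 0.000756). With the block 4 genes rose with DOX in *Xist* FL (*Tet1* 0.59, *Dnmt3a* 0.74, *Dnmt3l* 0.38 and *Trim28* 0.29) and 1 fell (*Kdm5c*), against 13.9% of all tested genes called, and in *Xist* ΔB+C 2 rose (*Tet1* 0.51 and *Dnmt3a* 0.58) and 2 fell (*Kdm5c* and *Hells*), against 21.9%. *Tet1*, which oxidises methylated cytosine, was higher in *Xist* ΔA than in *Xist* FL without DOX (1.11, SE 0.17, adjusted p = 0.00617; 194 to 315 CPM against 124 to 219.6 CPM over all libraries of each line), as was *Tet3* (0.75, SE 0.19, adjusted p = 0.0408). *Tet1* was lower in *Xist* ΔB+C than in *Xist* ΔA (-0.95, adjusted p = 0.0164). Of all tested genes, 9.84% were called for *Xist* ΔA against *Xist* FL and 6.69% for *Xist* ΔB+C against *Xist* ΔA. With the block 8 were higher and 0 lower in *Xist* ΔA than in *Xist* FL without DOX (33.4% of all tested genes called), 0 were higher and 5 lower in *Xist* ΔB+C than in *Xist* ΔA (27.9%), and *Dnmt3l* differed between *Xist* ΔB+C and *Xist* FL (0.87, higher in *Xist* ΔB+C, adjusted p = 0.00197; 0.993%). Between replicates 2 and 1, 10 of the 15 were higher and 1 (*Tet3*) lower, against 22.7% and 23.5% of all tested genes, with *Tet2* (1.18), *Dnmt3l* (0.68), *Dnmt3a* (0.56) and *Ehmt2* (0.41) as the largest. The list median was 0.22, against -0.00145 over all tested genes.

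Among 16 tested of 25 other meiosis genes found in the files, 2 were higher and 2 lower in *Xist* ΔA than in *Xist* FL without DOX. Of all tested genes, 9.84% were called in that comparison. *Stag3*, the meiotic cohesin subunit, lay between 34.4 and 35.7 CPM in the 4 *Xist* ΔA libraries and between 9.21 and 13.7 CPM in *Xist* FL (log2 fold change without DOX 1.90, SE 0.11, adjusted p = 5.69e-05), and between 8.73 and 12.6 CPM in *Xist* ΔB+C. *Sycp2*, the partner of *Sycp3* in the axial element, was higher in *Xist* ΔA by a log2 fold change of 1.14 (SE 0.26, adjusted p = 0.0259), and *Psmc3ip*, a recombination cofactor (-0.75, adjusted p = 0.0108), and *Syce2*, of the central element (-0.46, adjusted p = 0.0499), were lower. *Stag3* (-1.95), *Sycp2* (-1.31) and *Tex11* (-1.24) were lower in *Xist* ΔB+C than in *Xist* ΔA, against 6.69% of all tested genes called. With DOX, *Syce2* fell in *Xist* ΔB+C (-0.66, adjusted p = 0.0297) and *Stag3* was higher in the mean of the lines (0.31, adjusted p = 0.0327). Of all tested genes, 2.94% and 4.05% were called there. With the block, 5 were higher in *Xist* ΔA than in *Xist* FL without DOX (*Sycp2*, *Sohlh2*, *Zcwpw1*, *Stag3* and *Smc1b*) and 6 lower (*Mnd1*, *Syce2*, *Hormad2*, *Psmc3ip*, *Rec8* and *Dmc1*), against 33.4% of all tested genes called, and 2 were higher and 6 lower in *Xist* ΔB+C than in *Xist* ΔA, against 27.9%. *Sohlh2*, a transcription factor of early germ cells, had the largest difference between *Xist* ΔA and *Xist* FL that the fit without the block did not call (1.50, SE 0.14, adjusted p = 2.06e-05). With DOX and the block, 4 rose and 1 fell in *Xist* FL, against 13.9% of genes. In *Xist* ΔB+C 4 rose and 2 fell, against 21.9%. *Sohlh2*, *Stag3*, *Rec8* and *Smc1b* were those that rose in *Xist* FL, and each also passed in *Xist* ΔB+C. The last 3 are cohesin subunits, but so is *Smc3*, the gene that fell in *Xist* FL (-0.29). *Syce2* (-0.66) and *Dmc1* (-0.72) fell in *Xist* ΔB+C. Between replicates 5 were higher in replicate 2, led by *Sohlh2* (0.99), *Smc1b* (0.81), *Hormad2* (0.62) and *Rec8* (0.52), and 1 lower, against 22.7% and 23.5% of all tested genes.

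Of 17 tested of 22 other germ cell and piRNA pathway genes, *Tdrd5* was lower (-0.86, SE 0.17, adjusted p = 0.0159) and *Hspa2* higher (0.82, SE 0.14, adjusted p = 0.00829) in *Xist* ΔA than in *Xist* FL without DOX, and both went the other way in *Xist* ΔB+C against *Xist* ΔA (0.75 and -0.66). These comparisons called 9.84% and 6.69% of all tested genes without the block. No gene of this list passed with DOX without the block (edgeR, and likewise DESeq2 and limma‐voom; 1, 0 and 0 had an unadjusted p under 0.05 in *Xist* FL, ΔA and ΔB+C), whereas with the block 5 rose and 0 fell in *Xist* FL (*Fkbp6*, *Piwil4*, *Tex14*, *Hspa2* and *Piwil2*), against 13.9% of all tested genes called, and 5 rose and 0 fell in *Xist* ΔB+C (*Fkbp6*, *Zfp42*, *Tex14*, *Piwil2* and *Mov10l1*), against 21.9%. Without the block (edgeR), 1.24%, 0.00758% and 2.94% of all tested genes were called in *Xist* FL, ΔA and ΔB+C. With the block 3 were higher and 4 lower between *Xist* ΔA and *Xist* FL without DOX, and 3 higher and 4 lower between *Xist* ΔB+C and *Xist* ΔA, against 33.4% and 27.9% of genes. Between replicates 10 of 17 were higher in replicate 2 and 1 (*Tex15*) lower, against 22.7% and 23.5% of all tested genes, with a list median of 0.50. The largest were *Fkbp6* (1.16) and *Piwil4* (1.13), both of the piRNA pathway, *Zfp42* (0.96), which the list of naive markers also holds, and *Rpl10l* (0.83).

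Genes whose log2 CPM followed a member most closely over the 12 libraries were read as a description, since libraries share their line and replicate number. *Dppa3* was followed by *2610037D02Rik* (Pearson r = 0.991), *Gm8909* and *Guca1b*, and *Mael* by *Prmt3* (r = 0.974), *Zfp936* and *1600014C10Rik*. *Dazl* was followed by the zinc finger gene *Zfp981* (r = 0.963), *Mtus2* and *Zfp600*, and *Hormad1* by *Iqcg* (r = 0.965), *Morn2* and *Itpka*. For *Sycp1* these were *Cpd* (r = 0.964), *Rapgef6* and *Tom1l1*, for *Sycp3* *Tmie* (r = 0.959), *Dnajb9* and *Pramel1*, for *Brdt* *Nsun4* (r = 0.895), *Ncaph* and *Myo6*, and for *Taf7l* *Nkd2* (r = 0.922), *Ankrd34b* and *Prob1*. None of these genes was another member.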

How the data were processed

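RNA‐seq counts were available for 12 libraries, 2 replicates for each of 6 groups. Per the submitters' processing notes and the methods, the authors aligned read pairs to mm10 using TopHat2 2.1.0 and the refFlat annotation and counted read pairs over exons with featureCounts 1.5.1, leaving out pairs on different chromosomes, and deposited the raw counts, 1 file per library. The strand setting is not given in the sources used here. Samples were grouped by their labels. Genes were tested on these counts with edgeR 4.0.16 (quasi‐likelihood, robust, 6 group means, TMM from expressed autosomal genes, 6 residual degrees of freedom) in R 4.3.3. Benjamini–Hochberg adjustment of the p‐values ran over the 13191 genes with at least 1 CPM in 6 libraries and the threshold was 0.05. The study calls the replicates biological duplicates, and what same‐numbered duplicates share is not stated. The numbers pair the libraries, since all 15 correlations between groups were over 0.1, and a second fit used them as a block. Log2 CPM used a prior count of 2. A limit of 3 counts per library was set for a count of 0, which no member reached, and it covers counting error only. Alternatives were DESeq2 1.42.0, limma‐voom (limma 3.58.1), other scalings, filters and libraries left out, and the steps were tested on simulated counts. The members, gene lists, motifs and tests were chosen with earlier results of these data known. The genes named are the members, those of the PRC1.6, methylation, meiosis and germ cell lists that passed (at most 4 each by log2 fold change), and the 3 genes most like each tested member. Other list genes and markers that are named, such as those called with the block, were chosen after their values were seen. Settings that join the replicate block with another choice were added after seeing the data. Figures were drawn with matplotlib 3.10.9.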

Additional observations from a re-analysis of the deposited data

Results flagged for a closer look

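In the fit with the replicate block, *Hormad1* had a larger DOX response in *Xist* ΔB+C than in *Xist* ΔA by 1.08 on the log2 scale (SE 0.251, adjusted p = 0.0231, edgeR), which is a difference between lines under the same contrast. The DOX library was the higher in both *Xist* ΔB+C pairs and in 1 of 2 *Xist* ΔA pairs. Without the block the adjusted p was 0.585, and with 1 library left out the value with the block lay between 0.93 and 1.25. The call was lost in several of these fits, as given above. The *Xist* FL libraries enter this difference only through the shared spread and the block, so leaving them out tests it little. With 2 libraries per group, single outlying libraries were not sought.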

How the results depend on the processing

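The counts of members past the threshold depended on the replicate block. Without it, 0 members passed with DOX in each line and in the mean of the lines, and 0 in the differences between lines. With the replicate block, alone, with library totals alone or in limma‐voom, the count was 1 for *Xist* FL, 1 for *Xist* ΔB+C, 2 for the mean and 1 for *Xist* ΔB+C minus *Xist* ΔA. With the block and the lower limit of 0.1 CPM in 2 libraries these were 1, 2, 3 and 1. Between *Xist* ΔA and *Xist* FL without DOX, 1 passed, against 2 in DESeq2, 3 with the replicate block, alone, with library totals alone or in limma‐voom, 4 with the block and the lower limit, 3 for the mean over noDOX and DOX libraries and 5 for that mean with the block. Between *Xist* ΔB+C and *Xist* ΔA, 1 passed, against 2 in DESeq2, 4 with the block, 4 with the block in limma‐voom, 5 with the block and library totals alone, 6 with the block and the lower limit, 4 for the mean over noDOX and DOX libraries and 7 for that mean with the block, which also gave 2 between *Xist* ΔB+C and *Xist* FL, where all other settings gave 0. Between replicate numbers 3 passed, against 2 in limma‐voom and 1 in the noDOX libraries only. With 1 library left out, with or without the block, the counts ranged from 0 to 1 for *Xist* FL, 0 to 2 for *Xist* ΔB+C, 0 to 3 for the mean, 0 to 1 for *Xist* ΔB+C minus *Xist* ΔA, 1 to 4 for *Xist* ΔA against *Xist* FL, 1 to 7 for *Xist* ΔB+C against *Xist* ΔA, and 2 to 4 between replicate numbers (without the low input library only), and stayed at 0 for the others. The 675 values of single members under the alternatives cover only members and comparisons called with or without the block. Alternatives with the block are among them, so the number that passed is partly set by this choice. Of the 675, 395 kept direction and side of the threshold, 273 passed it where they had not, 7 no longer passed and 0 reversed a call. The cause was not tested. Settings that join the block with another choice were chosen after seeing the data. Depth limits *Asz1* and *Stra8*, at 4 to 20 counts in several libraries.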

Other observations

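Markers of germ cell specification and of early differentiation were also compared between the replicate numbers, where 22.7% of all tested genes were higher and 23.5% lower in replicate 2. Their summed levels overlapped between the replicates. Of 10 primordial germ cell factors tested, 6 were higher in replicate 2 than in replicate 1 and 1 (*Lin28a*, log2 fold change -0.11) was lower (edgeR), with a list median of 0.56. The largest was *Prdm14* (1.34), a regulator of germ cell fate that is also a naive pluripotency marker, followed by *Dppa5a* (0.65), *Kit* (0.63), the receptor of stem cell factor, and *Nanos3* (0.57), which protects primordial germ cells. Of 8 formative and early differentiation markers, 4 were lower in replicate 2, namely the primitive streak genes *Mixl1* (-1.39), *T* (-1.38) and *Eomes* (-0.35), and *Otx2* (-0.16), and 1 was higher (*Pou3f1*, 0.30). These genes were named after their values were seen.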
